A study of Homo sapiens with 12 samples.

Results

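The wildtype (WT) MDA-MB-231 cells kept in normoxia form one of the 3 groups of this RNA-seq study, and their transcriptome is described here on its own. They are the 4 libraries labelled wild type and untreated, chosen by those labels from the 12 libraries of the study. The line MDA-MB-231, long established from a triple-negative breast cancer, is human, and the cells carried no knockout and received no agent. The other groups, WT cells held in hypoxia for 24 hr and CCAR2 -/- cells in normoxia with 4 libraries each, were not used, so every value below is a level within one state. Cells were grown in DMEM with fetal bovine serum, and poly-A RNA was sequenced. The labels do not say that the 4 libraries came from separate cultures, so the spread between them may be technical. The methods speak of RNA extracted in triplicate and of 2 biological replicates for each condition, against 4 libraries in the labels.

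Breast epithelium holds luminal cells, which carry hormone receptors and simple keratins, and basal cells, which lie on the basement membrane. Epithelial cells are tied together by E-cadherin, claudins and desmosomes. In epithelial-mesenchymal transition, transcription factors of the SNAI, TWIST and ZEB families repress E-cadherin, and the intermediate filament vimentin appears. Lines that carry much of the mesenchymal program are known as mesenchymal-like, and MDA-MB-231 is widely used as one. Triple-negative tumors lack the estrogen receptor, the progesterone receptor and amplified HER2.

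Levels are given on a pair of scales. CPM is the deposited value of a gene scaled to a library sum of 1000000, and serves for one gene in several libraries. TPM divides the value by the merged exon length of the gene first, and serves for comparing genes with one another. Values are given in the order of libraries 1 to 4, and ± is the SD over these 4 libraries. Sums per library lay between 153904088 and 213743693, and are not taken as numbers of reads, since the deposited values are estimates. A gene at 0 in a library could still have an expected count of up to about 3, which is between 0.0140 and 0.0195 CPM for counting error alone. Of 60664 genes, 13387 reached 1 CPM in all 4 libraries, which was 22.07% of all genes and 59.71% of the protein-coding genes. The number of genes above 0 was between 28165 and 29435, and 25675 genes were at 0 in all 4 libraries. No pair of libraries held the same values, and the median absolute log2 ratio of a pair was between 0.05 and 0.11 over the 9607 genes with a mean of at least 10 CPM.

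The label was first checked against 7 markers. VIM, the gene of vimentin (ENSG00000026025, chr10:17228259-17237593, GRCh38), had 3403, 3343, 3211 and 3337 TPM and held rank 24 of 33941 ranked genes. CD44, a hyaluronan receptor of the cell surface, had 229.8, 200.1, 203 and 213 TPM. EGFR, the receptor of epidermal growth factor, had 105, 78.5, 83.5 and 99.1 TPM, with libraries 1 and 4 above libraries 2 and 3. ERBB2, the gene of HER2, was lower, with 29.7, 28.3, 28.5 and 32 TPM. These markers did not overlap: the ranges of VIM, CD44, EGFR and ERBB2 over the 4 libraries were separate and in this order.

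The other 3 markers were near 0 in every library. ESR1, the gene of the estrogen receptor alpha, had 0.379, 0.147, 0.187 and 0.338 CPM, from values of 69, 27, 40 and 52. PGR, the progesterone receptor gene, had values of 18, 4, 3 and 4, most of which came from library 1. CDH1, the gene of E-cadherin, had values of 0, 11, 17 and 4. ESR1 and PGR did not overlap, with a lowest ESR1 value of 0.0358 TPM and a highest PGR value of 0.0223 TPM. The TPM ranges of ESR1 and CDH1 overlapped, though ESR1 was the higher in each of the 4 libraries. CDH1 and PGR overlapped too, and no order between them is given. Thus VIM, CD44 and EGFR were present and ESR1, PGR and CDH1 were at trace levels. The labels give no marker pattern, and the high VIM and low ESR1, PGR and CDH1 match the background on this line given above. ERBB2 was present but not high: STARD3 and PGAP3, its neighbors in the segment that is amplified in HER2-positive tumors, had 41.5 ± 1.57 and 5.39 ± 0.553 TPM, and GRB7 on its other side had 6.9 ± 0.818 TPM.

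The most abundant RNAs came from the mitochondrial genome. By TPM, 14 of the 25 highest genes were mitochondrially encoded, among them all 13 protein-coding genes of that genome. MT-CO1, a catalytic subunit of cytochrome c oxidase, was first with 30815, 28751, 28122 and 29842 TPM. The 37 mitochondrially encoded genes together took between 17.6% and 18.7% of the TPM of a library, but between 4.65% and 4.87% of its CPM, since TPM gives more weight to short transcripts. MTATP6P1, a pseudogene on chromosome 1, stood in position 25 with 3296 ± 127 TPM. It is nearly identical to MT-ATP6 and its TPM was 0.158, 0.165, 0.159 and 0.152 of that gene's, so how reads were divided between them is uncertain. MT-ATP6, MT-ATP8, MT-CO3, MT-ND4 and MT-ND4L share bases with a neighbor on the same strand, and their split is uncertain as well.

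Among nuclear genes, TMSB10, which encodes an actin monomer-binding thymosin, was highest by merged exon length with 5878, 7147, 7629 and 6599 TPM. It also had one of the widest spreads of these genes, with library 1 lowest and library 3 highest. EEF1A1, the elongation factor that brings aminoacyl-tRNA to the ribosome, had 5830.1, 6081, 5952 and 5745 TPM. ACTB, cytoplasmic beta-actin, had 5576, 5884, 5775 and 5858 TPM. The glycolytic enzyme gene GAPDH had 5557, 5681, 5595 and 5716 TPM, and ACTB overlapped both EEF1A1 and GAPDH, which did not overlap each other. FTL, the ferritin light chain, RPS12 and RPL8 of the ribosome and ACTG1, gamma-actin, followed with means between 3698 and 5512 TPM. HMGA1, an architectural chromatin protein that is low in most adult tissues, had 3296, 3266, 3245 and 3500.0 TPM and overlapped VIM. The order and overlaps of these nuclear genes depend on the length used. Merged exons and the longest transcript are both 496 bases for TMSB10, but 5948 and 4441 bases for EEF1A1. These lengths are 3519 and 2245 for ACTB, 2981 and 1875 for GAPDH, 2327 and 2159 for HMGA1, and 5158 and 2666 for VIM. On the CPM scale, where a long RNA counts for more, the 10 highest genes were MT-CO1, EEF1A1, ACTB, MT-ND4, VIM, GAPDH, MT-CO3, MT-CO2, MT-ATP6 and MT-RNR2. They took 6.12% ± 0.0805 of the sum of a library.

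**Figure D1:**
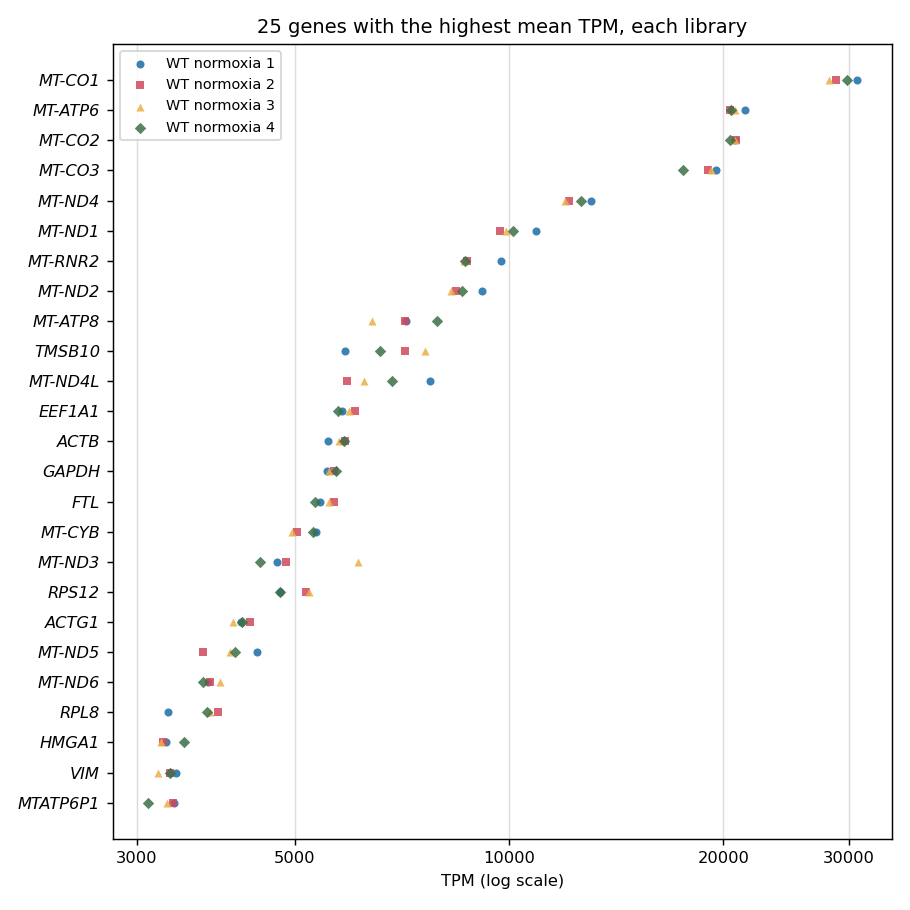
TPM (log axis) of the 25 genes with the highest mean TPM, each point 1 of the 4 WT normoxia libraries. The libraries lie close together for most genes, while TMSB10, MT-ND4L and MT-ND3 are spread most widely.

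The start regions of 4 of these nuclear genes are shown because the mRNAs of ribosomal proteins and elongation factors are known to begin with a terminal oligopyrimidine tract, through which mTOR signaling controls their translation. Each line gives 20 bases before and 20 bases from the RefSeq start (GRCh38.p14), 5′ to 3′ on the strand of the gene, with the run of C and T from the first transcribed base in capitals. EEF1A1 is at chr6:73521013-73521052 (minus strand), RPS12 at chr6:132814549-132814588, HMGA1 at chr6:34236853-34236892 and VIM at chr10:17228221-17228260 (plus strand).
EEF1A1: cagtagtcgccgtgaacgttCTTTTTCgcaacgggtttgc
RPS12: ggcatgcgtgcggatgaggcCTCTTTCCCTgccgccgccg
HMGA1: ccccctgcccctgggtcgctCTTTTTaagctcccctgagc
VIM: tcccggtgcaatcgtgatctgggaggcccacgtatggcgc
A C followed by at least 4 pyrimidines stood at the annotated start of 3 of the 8 nuclear genes of the top 25 that could be matched, which are EEF1A1, RPS12 and HMGA1. VIM had no such run. Of all 15144 matched protein-coding genes, 4.65% had one. The windows cover 76.5% of the protein-coding genes and 78.3% of the ribosomal protein genes, so no share by gene group is given. The tract was read from the annotated start, and where transcription began in these cells was not measured.

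Ribosomal protein genes made up between 5.78% and 6.61% of the sum of a library. Of the 83 cytosolic ribosomal protein genes and paralogs, 81 reached 10 CPM in all 4 libraries, with a median mean TPM of 690.1. Among all 19890 protein-coding genes, 9056 reached 10 CPM in all 4. The exceptions were the paralogs RPL3L, a form known from striated muscle, with 0.0941 ± 0.0251 CPM, and RPL10L, a retrogene known from testis, which was at 0 in all 4 libraries. RPL39L, another paralog, was present with 13.7 ± 2.52 CPM. Housekeeping genes were all present, and 15 of 15 reached 10 CPM, from TBP with 27.3 ± 1.19 TPM to ACTB, so that no gene every cell needs was listed at 0 among them.

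Mesenchymal-like markers of breast cancer lines were nearly all present. Of the 25 genes on this list, 23 reached 1 CPM in all 4 libraries and 21 reached 100 CPM, with a median mean TPM of 211.4. The share at 1 CPM was 92%, against 59.71% of all protein-coding genes, of which 2135 of 19890 reached 100 CPM. The list was chosen with earlier results of these data known. CCN1 and LGALS1 followed VIM at the head of the list. CCN1, a secreted matrix protein and YAP target, had 2543, 2441, 2494 and 2451 TPM. LGALS1, the lectin galectin 1, had 2084, 2409, 2388 and 2355 TPM, with library 1 below the rest. CAV1, the coat protein of caveolae, had 749 ± 39.2 TPM, and FOSL1, an AP-1 transcription factor, had 734, 738, 739 and 739.6 TPM, a range of only a few units. FN1, fibronectin, had 88.8, 69.5, 72.1 and 90.9 TPM, with libraries 1 and 4 above libraries 2 and 3 as for EGFR.

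Exceptions on that list were CDH2, SPARC and THY1. CDH2, the gene of N-cadherin, which often takes the place of E-cadherin in mesenchymal cells, had only 0.324, 0.387, 0.627 and 0.442 CPM. THY1, a surface protein of fibroblasts, had 0.17, 0.316, 0.0561 and 0.481 CPM. SPARC, a secreted matrix protein, was just over the threshold with 1.05, 1.44, 1.06 and 1.3 CPM. Hence vimentin was among the most abundant mRNAs of the cell while N-cadherin RNA stayed below 1 CPM in each library.

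Of 12 transcription factors tied to epithelial-mesenchymal transition, 5 reached 1 CPM in all 4 libraries. This was 41.7%, against 59.71% of all protein-coding genes. TCF3, which encodes the E proteins E12 and E47 and is widely expressed, was highest with 127, 124, 124 and 142 TPM. ZEB1, a zinc-finger repressor of CDH1, had 28.7, 22.5, 21.9 and 24.3 TPM. Its paralog ZEB2 had 2.77, 2.24, 2.44 and 2.74 TPM, and the ratio of ZEB1 to ZEB2 was 10.4, 10.05, 8.96 and 8.87. Both were highest in library 1 and their ranges did not overlap. SNAI1 and SNAI2, the genes of Snail and Slug, were low, with 5.45 ± 0.471 and 3.77 ± 0.22 TPM. PRRX1 straddled the threshold, with 1.55, 1.24, 0.95 and 1.68 CPM. TWIST1, TWIST2 and GSC were at 0 in all 4 libraries.

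Epithelial genes were split. Of 24 genes of junctions and epithelial splicing, 15 reached 1 CPM and 11 reached 10 CPM in all 4 libraries. The share at 1 CPM was 62.5%, near the 59.71% of all protein-coding genes. Desmosome genes led: DSG2, a desmosomal cadherin, had 114, 95.3, 98.2 and 104 TPM, and DSP, desmoplakin, had 76.5, 58.4, 62.8 and 67.9 TPM. CLDN4, a claudin of tight junctions, had 44.9 ± 2.73 TPM. PKP3 and JUP, plaque proteins of the desmosome, had 33.9 ± 1.04 and 32.9 ± 3.67 TPM. EPCAM, the epithelial cell adhesion molecule, had 13.9, 14.1, 14.8 and 14 CPM, so it was present in each library with a narrow spread. ESRP2, a splicing regulator of epithelial cells, had 8.61 ± 0.964 TPM, and its paralog ESRP1 had 1.09 ± 0.0522 TPM. CDH1, GRHL2 and OVOL2, the last pair being transcription factors that keep the epithelial state, had 0.0414 ± 0.0354, 0.011 ± 0.022 and 0.399 ± 0.15 CPM. OVOL1 and RAB25 were at 0 in all 4 libraries. Desmosomal RNA was therefore present while E-cadherin RNA was at a trace level.

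Luminal keratins were abundant, while the luminal transcription factors GATA3, SPDEF and FOXA1 were low. Of 16 luminal genes, 8 reached 1 CPM in all 4 libraries, which is 50% against 59.71% of all protein-coding genes. XBP1, a factor of the unfolded protein response, had 81.8 ± 1.75 TPM. GATA3, a master factor of luminal cells, had 6.44, 5.33, 6.17 and 5.25 TPM, and SPDEF, an ETS factor, had 6.84 ± 1.07 TPM. FOXA1, which opens chromatin for the estrogen receptor, had 1.58, 0.965, 1.49 and 1.25 CPM, so library 2 was just under the threshold. TFF1 and TFF3, estrogen-induced trefoil peptides, and ELF5 of the secretory lineage were at 0 in all 4 libraries.

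Basal markers were mostly low, with 5 of 12 at 1 CPM in all 4 libraries (41.7%, against 59.71% of all protein-coding genes). LAMB3, a chain of laminin 332 in the basement membrane, stood apart with 535, 519, 520.4 and 583 TPM. TAGLN, an actin-binding protein of smooth muscle, had 34 ± 2.85 TPM. KRT14 had 3.57, 2.93, 3.0 and 3.09 TPM and TP63, the basal transcription factor p63, had 0.456, 0.164, 0.384 and 0.247 CPM. KRT5 and KRT6A, the basal keratins, were at 0 in all 4 libraries. None of the 8 milk and secretory genes reached 1 CPM, and 7 of them, caseins and alpha-lactalbumin included, were at 0.

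**Figure D2:**
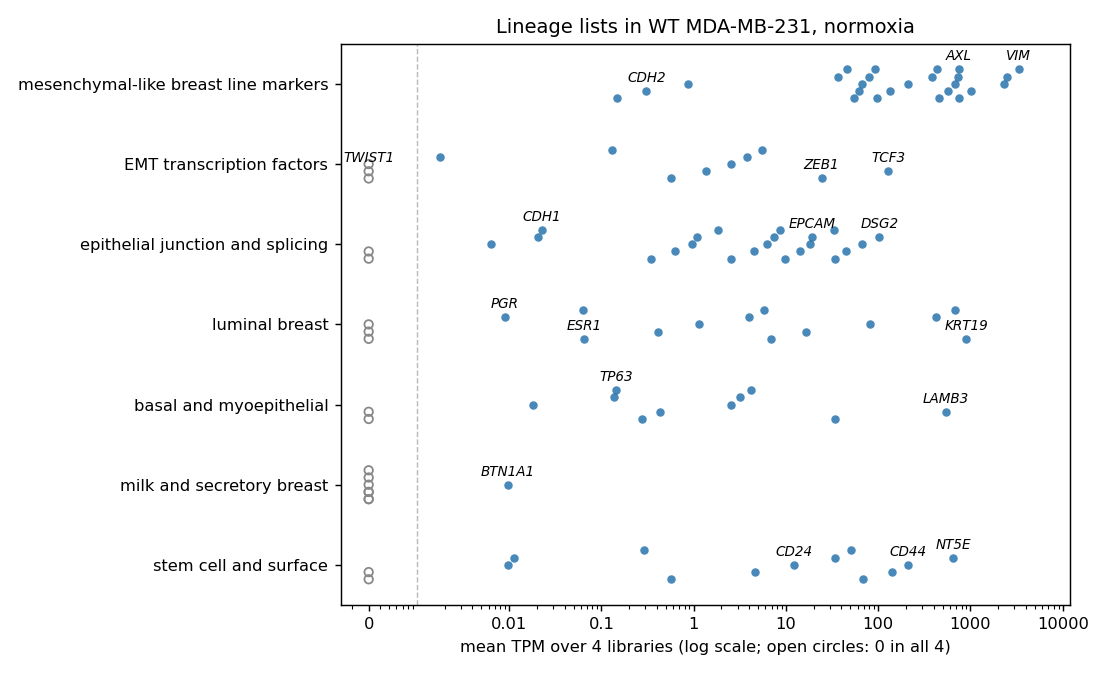
Mean TPM over the 4 libraries (log axis) of the genes of 7 lineage lists, with open circles for genes at 0 in all 4. The mesenchymal-like genes gather at the right from about 36.7 TPM (CDH11) to 3323 TPM (VIM) with CDH2, SPARC and THY1 apart, while each of the other lists runs from near 0 to its highest member.

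Within the keratin family, 11 of 55 genes reached 1 CPM and 24 were at 0 in all 4 libraries. Keratins form filaments as pairs of a type I and a type II chain. KRT19, a type I keratin of simple epithelia, was highest with 811, 942, 908 and 925 TPM. KRT7, a type II keratin of simple and glandular epithelia, had 729, 763, 772 and 767 TPM. KRT18 and KRT8, which pair with each other, had 672 ± 20.3 and 428 ± 19.7 TPM, and the ratio of KRT18 to KRT8 was 1.61, 1.55, 1.59 and 1.53. The ranges of KRT19, KRT7, KRT18 and KRT8 did not overlap, in this order. VIM was 7.78 ± 0.506 times KRT8 per length, with ratios of 8.53, 7.61, 7.42 and 7.56. The hair keratin gene KRT81 had 347, 417, 399 and 416 TPM and overlapped KRT8, though KRT8 was the higher within each library. KRT81, KRT83 and KRT86 are near-identical neighbors, so the division of reads among them is uncertain. KRT83 lay at the threshold with 0.703, 0.769, 1.06 and 1.53 CPM.

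Among surface and stem cell genes, CD44 RNA was higher than CD24 RNA per length, with both present. Surface protein was not measured. Of 14 genes on the list, 8 reached 1 CPM in all 4 libraries, which is 57.1%, near the 59.71% of all protein-coding genes. NT5E, the ectonucleotidase CD73, had 696, 628, 609.7 and 664 TPM. CD24, a mucin-like surface protein, had 12.4, 12.3, 11.8 and 12.4 TPM, and the ratio of CD44 to CD24 was 18.5, 16.3, 17.2 and 17.2. ITGA6, CD49f, had 142 ± 8.07 TPM and PROCR, the endothelial protein C receptor, had 69 ± 1.62 TPM. Of the 2 aldehyde dehydrogenases that mark stem-like fractions, ALDH1A3 had 7.77 ± 0.696 CPM and ALDH1A1 0.00819 ± 0.0164 CPM. The pluripotency factors SOX2 and POU5F1 had 0.413 ± 0.0514 and 0.245 ± 0.0768 CPM, and NANOG and LIN28B were at 0.

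Receptor tyrosine kinases bind growth factors outside the cell and signal through their kinase domain. Of 58 genes, 28 reached 1 CPM in all 4 libraries, 4 reached 100 CPM, and 3 were at 0 in all 4. AXL, the receptor of GAS6, was highest with 774, 715, 719 and 767 TPM and held rank 144. EPHA2, an ephrin receptor, had 372, 371, 365 and 415 TPM. EGFR came next, and MET, the receptor of hepatocyte growth factor, had 70.8, 57.4, 57.2 and 64.6 TPM. The ranges of AXL, EPHA2, EGFR and MET did not overlap. AXL was 8.22 ± 0.781 times EGFR per length, with ratios of 7.4, 9.11, 8.61 and 7.75, and EGFR was 3.08 ± 0.324 times ERBB2.

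Further down, EPHB4 with 37.9 ± 2.11 TPM overlapped ROR1 with 34 ± 3.71 TPM, and ROR1 overlapped ERBB2. ERBB2 did not overlap PTK7, the next in order, and neither did FGFR1 overlap RYK, whereas PTK7 overlapped FGFR1 and RYK overlapped MST1R. Within each library, though, ROR1 was above ERBB2 and RYK above MST1R. PTK7, FGFR1, RYK, MST1R, MERTK, IGF1R and LMTK2 lay between 16.4 and 26.1 TPM. AXL's relatives MERTK and TYRO3 had 17.6 ± 0.71 and 10.1 ± 0.604 TPM. ERBB3 had 4.0 ± 0.503 TPM, and ERBB4 had 0.0948 ± 0.111 CPM, so of the EGFR family only the last was under 0.1 CPM on average. At the threshold stood DDR1 with 2.29, 1.78, 2.2 and 2.2 CPM just above it. TIE1 had 1.22, 0.976, 1.07 and 1.47 CPM and fell below it in library 2. FGFR2, EPHA8 and NTRK3 were at 0 in all 4 libraries.

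**Figure D3:**
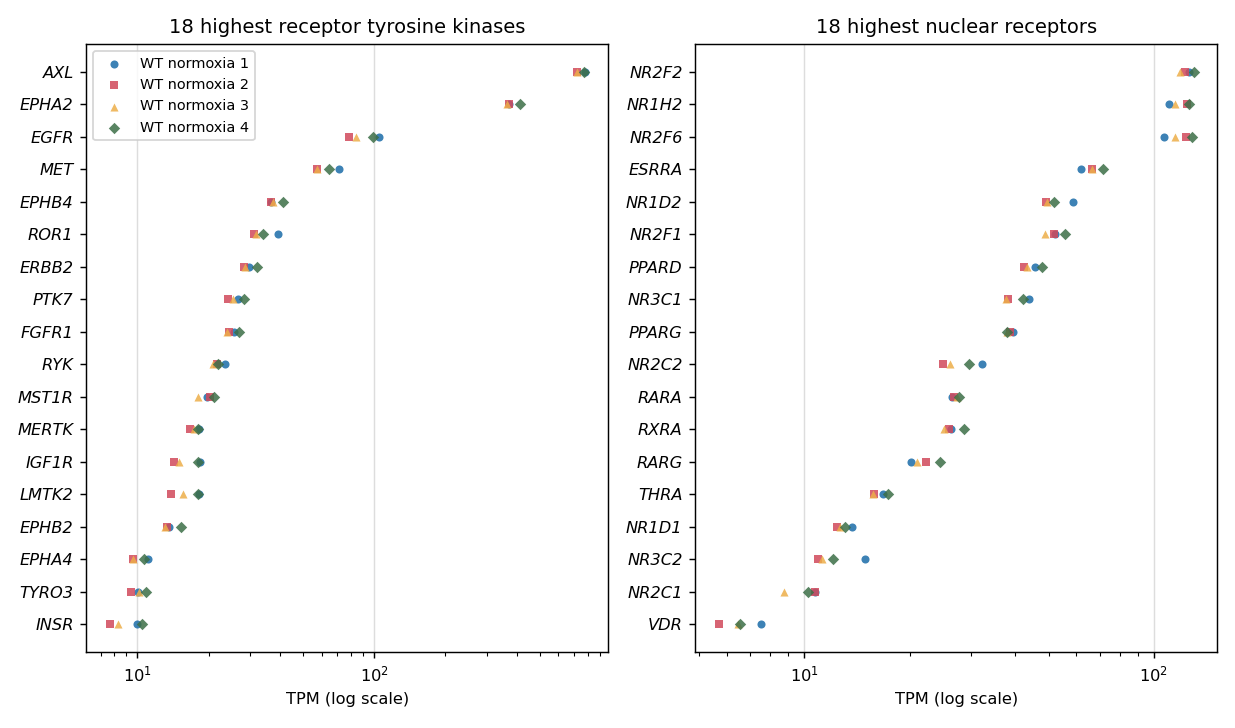
TPM (log axis) of the 18 highest receptor tyrosine kinase genes (left) and the 18 highest nuclear receptor genes (right), each point 1 of the 4 WT normoxia libraries. AXL and EPHA2 stand apart from the other kinases, whereas the top 3 nuclear receptors lie together between 107 and 130.1 TPM.

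Nuclear receptors are transcription factors that bind steroids, lipids or other small ligands, or have no known ligand. Of 48 genes, 27 reached 1 CPM in all 4 libraries, 17 reached 10 CPM and 2 were at 0 in all 4. NR2F2, the orphan receptor COUP-TFII, had 126, 123, 119 and 130.1 TPM. NR1H2, the oxysterol receptor LXR beta, had 110.3, 124, 115 and 126 TPM. NR2F6, another COUP-TF relative, had 107, 124, 115 and 129 TPM. These ranges overlapped, so the 3 genes were not ordered. ESRRA, the estrogen-related receptor alpha, which binds no estrogen, followed with 62, 66.8, 66.6 and 71.7 TPM. NR3C1, the glucocorticoid receptor gene, had 44, 38.2, 37.7 and 42.1 TPM, and NR2F2 was 3.08 ± 0.151 times as high. PPARD and PPARG, fatty acid sensors, had 44.9 ± 2.36 and 38.7 ± 0.699 TPM.

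The estrogen and progesterone receptors were low, though 11 members of the family stayed under 0.1 CPM in every library. ESR1 and PGR had 0.263 and 0.0402 CPM on average, and ESR2, the estrogen receptor beta gene, had 0.675, 0.442, 0.786 and 0.617 CPM. None of the 3 reached 1 CPM in any library. NR3C2, the mineralocorticoid receptor gene, had 12.3 ± 1.81 TPM. NR4A2 with 2.14 ± 0.273 CPM was the member just above the threshold and RARB, a retinoic acid receptor gene, with 0.779 ± 0.176 CPM the one just below it. NR0B1 and NR2E1 were at 0.

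Of 39 growth factor and cytokine genes, 26 reached 1 CPM in all 4 libraries, which is 66.7% against 59.71% of all protein-coding genes. The shares were 48.3% for receptor tyrosine kinases and 56.25% for nuclear receptors. Among families described elsewhere they were 53.8% for integrins, 45.5% for collagens, 34.8% for matrix metalloproteinases and 25% for claudins. For HOX genes, keratins and cadherins they were 20.5%, 20% and 17.4%. GAS6, the ligand of AXL, MERTK and TYRO3, was highest with 236, 253, 243 and 253 TPM. Its ratio to AXL was 0.305, 0.354, 0.338 and 0.33, so ligand and receptor RNA were both abundant in the same libraries. HBEGF, a ligand of EGFR and ERBB4, had 130.5, 131, 133 and 132 TPM, and TGFB1 had 119, 127, 123 and 132 TPM. VEGFC, which acts on lymphatic vessels, had 91.4 ± 3.22 TPM. Further EGFR ligands were AREG with 89.9, 92.4, 83.9 and 86.8 TPM, TGFA with 24.6 ± 0.636 TPM and EREG with 21.3 ± 2.91 TPM. EGF itself was low with 2.05, 2.23, 2.2 and 2.17 TPM, and HBEGF was 60.9 ± 2.06 times as high.

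Inflammatory factors of this list differed widely. IL11, a cytokine of the IL6 family, had 64.2, 66.2, 66.2 and 74.5 TPM. CXCL8, which draws neutrophils, had 61.7, 63.8, 59.96 and 57.9 TPM, and CSF1, the macrophage growth factor, had 55.3, 59.3, 56.5 and 65.9 TPM. CSF1R, the receptor of CSF1, had 0.253, 0.338, 0.206 and 0.182 CPM, and per length CSF1 was between 268 and 539 times as high. LIF had 37 ± 2.28 TPM. IL24 was just above the threshold with 1.16, 1.19, 1.47 and 1.27 CPM and IL6 just below it with 1.71, 1.04, 1.26 and 0.981 CPM, where library 1 was highest and library 4 under 1 CPM. TNF and CCL5 had 0.00905 ± 0.00786 and 0.026 ± 0.0186 CPM. HGF, IGF1 and IGF2, ligands of MET and IGF1R, were at 0 in all 4 libraries, while those receptors had 62.5 ± 6.52 and 16.4 ± 2.06 TPM. CXCL1, CXCL2 and CXCL3 are similar in sequence, and their levels of 18.3, 10.7 and 2.52 TPM are uncertain for that reason.

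Integrins join the cell to the matrix as pairs of an alpha and a beta chain. Of 26 genes, 14 reached 1 CPM in all 4 libraries. ITGB1, the beta chain shared by most pairs, had 491, 449, 439.9 and 453 TPM. ITGA3, a laminin-binding chain, had 328, 303, 311 and 359 TPM, and the ratio of ITGB1 to ITGA3 was 1.5, 1.48, 1.41 and 1.26. The laminin-binding pair ITGA6 and ITGB4 had 142 ± 8.07 and 102 ± 11.5 TPM, with ITGB4 highest in library 4. ITGA5 and ITGAV, chains of the fibronectin and vitronectin receptors, had 70.5 ± 4.63 and 33.8 ± 2.84 TPM. ITGB3 was just above the threshold with 1.53 ± 0.291 CPM, and ITGA2B, its partner on platelets, just below it with 0.32 ± 0.119 CPM. ITGA8 and ITGAD were at 0.

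Of 23 cadherins, 4 reached 1 CPM in all 4 libraries, and neither E- nor N-cadherin was one of them. CDH24, a type II cadherin, had 38.2, 39.1, 37.5 and 40.4 TPM. CDH11, OB-cadherin of bone-forming and mesenchymal cells, had 35.4, 36.9, 33.8 and 40.6 TPM, and CDH4, R-cadherin, had 38.8, 31.1, 33.2 and 38.9 TPM. Their ranges overlapped, so these 3 genes shared the top of the family. CDH3, P-cadherin, was next with 0.722, 1.03, 0.759 and 1.1 TPM. CDH11 shares exon bases with another gene on its strand, and its value is uncertain to that extent. The same holds for LAMB3, NR2F2, NR2F6, CD68, MBP, CLDN12, CLDN7, ESRP2, ERBB3, ALDH1A3, DDR1, ITGB3, OVOL2, ESR1, ESR2, PDGFRA, COL3A1, MMP2, RPL8, HSPA1B, HIF1A, SLC2A1, HOXB6, HOXD1, HOXD3 and HOXD4.

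Claudins seal tight junctions, and 6 of 24 reached 1 CPM in all 4 libraries. CLDN12 had 53.6, 48.6, 45.1 and 46.4 TPM. CLDN4 had 41.2, 46, 44.8 and 47.6 TPM and overlapped CLDN12. CLDN7 had 18 ± 1.72 TPM, and CLDN1 had 9.71 ± 1.17 TPM. CLDN23 with 5.02 ± 0.269 CPM was the lowest above the threshold and CLDN3 with 1.06, 0.8288, 1.06 and 0.858 CPM straddled it. TJP1, which encodes the tight junction scaffold ZO-1, had 14.1 ± 1.94 TPM, and OCLN, occludin, had 6.22 ± 0.298 TPM.

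Collagens and their proteases gave a mixed matrix profile. Of 44 collagen genes, 20 reached 1 CPM in all 4 libraries. COL13A1, a transmembrane collagen, was highest with 103, 105, 108 and 113 TPM. COL4A2, a basement membrane chain, had 43.4, 38.4, 42.3 and 46.5 TPM, and the neighboring gene COL4A1, which shares a promoter region with it, had 18.6, 16.1, 16.9 and 19.6 TPM. COL8A1 had 35.9 ± 1.85 TPM. The fibrillar chains were low: COL1A1 had 4.7, 4.72, 4.59 and 5.22 TPM, whereas COL1A2, whose chain joins that of COL1A1 in type I collagen, had values of 4, 0, 12 and 4. COL3A1 had 0.377 ± 0.146 CPM and was the member just below the threshold, and COL16A1 with 1.3 ± 0.231 CPM the member just above.

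Of 23 matrix metalloproteinases, 8 reached 1 CPM in all 4 libraries and 2 reached 100 CPM. MMP1, interstitial collagenase, had 1412, 1366, 1387 and 1249.6 TPM and held rank 69, with library 4 lowest. MMP14, a membrane-bound protease that cleaves collagen at the cell surface, had 254, 247, 256 and 289 TPM, with library 4 highest. The ratio of MMP1 to MMP14 was 5.57, 5.52, 5.41 and 4.33. MMP3, stromelysin 1, had 15.2, 13.5, 14.3 and 10.6 TPM. MMP9, a gelatinase, had 0.0988, 0.382, 0.313 and 0.286 CPM, and MMP2, the other gelatinase and a substrate of MMP14, had values of 0, 0, 9 and 0. MMP24 with 1.62 ± 0.26 CPM and MMP25 with 0.845 ± 0.0545 CPM lay on either side of the threshold.

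HOX genes keep positional identity and lie in 4 clusters. Of 39 genes, 8 reached 1 CPM in all 4 libraries and 18 were at 0 in all 4. In the HOXA cluster (chr7:27092993-27200106), 10 of 11 genes were at 0 in all 4 libraries and HOXA13 had 0.357, 0.36, 0.182 and 0.11 CPM. In the HOXB cluster (chr17:48528526-48729178), 3 of 10 genes reached 1 CPM, and HOXB9 was the highest of all HOX genes with 37.2, 35, 32.8 and 37.2 TPM. The HOXD cluster (chr2:176092891-176190907) had 3 of 9 at this level, which were HOXD1, HOXD3 and HOXD4 with 14.9 ± 0.898, 5.5 ± 0.301 and 13.4 ± 1.17 TPM, and 5 at 0. The HOXC cluster (chr12:53938765-54056030) had 2 of 9. HOXB6 with 1.42 ± 0.129 CPM was just above the threshold and HOXC8 with 0.922, 0.938, 0.823 and 1.18 CPM straddled it.

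Genes of other cell types were used to see what else the RNA could hold. Of 85 genes on 11 lists, 11 reached 1 CPM in all 4 libraries, 44 stayed below 0.1 CPM in each library and 22 were at 0 in all 4. Of all protein-coding genes, 59.71% reached 1 CPM and 15.3% were at 0 in all 4. No gene of B cells, hepatocytes, muscle or red blood cells reached 1 CPM, and their highest members were CD79A, APOA1, ACTA1 and HBA1 with 0.141 ± 0.0427, 0.325 ± 0.0785, 0.199 ± 0.0752 and 0.23 ± 0.0785 CPM. HBA1 and HBA2 are near-identical and are uncertain as single genes. Of the T and NK cell list, TRAC, the constant segment of the T cell receptor alpha chain, had 2.77, 3.3, 3.43 and 3.89 CPM and CD8A had 2.1, 2.13, 2.57 and 2.14 CPM. CD3E, CD3G and CD2, which T cells need, were at 0 in all 4 libraries. CD68, a lysosomal protein that is used as a macrophage marker, had 86.2, 94, 94.9 and 94.8 CPM. PTPRC, the CD45 of all white blood cells, had 0.202 ± 0.027 CPM, CD14 had 0.582 ± 0.0566 CPM, and S100A8, S100A9, MPO and FCGR3A were at 0.

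Of the endothelial list, ESAM, an adhesion molecule of endothelial junctions, was high with 276, 286, 278 and 295 TPM. KDR, a VEGF receptor, and PECAM1 also passed 1 CPM with 6.02 ± 0.675 and 2.52 ± 0.503 CPM, and CDH5, the cadherin of endothelial junctions, had 0.0609 ± 0.0332 CPM and VWF 0.321 ± 0.113 CPM. Of the fibroblast list COL1A1 alone reached 1 CPM, and DCN, LUM, FAP and PDGFRA had between 0.0164 and 0.0734 CPM on average. MITF, the melanocyte master factor, which also has forms in other tissues, had 22.5, 20.3, 19.7 and 20.7 TPM. PMEL, a protein of melanosomes, had 1.98 ± 0.446 CPM, SOX10 had 0.23 ± 0.0143 CPM and TYR, tyrosinase, was at 0. MBP, of myelin, had 20.7 ± 0.89 CPM, LIPE, hormone-sensitive lipase, had 8.93 ± 0.209 CPM, and the other members of the neural and adipocyte lists were under 1 CPM on average. The summed level of a list was between 242 and 261 CPM for endothelial genes, nearly all of it ESAM, between 87.4 and 96.0 CPM for myeloid genes, nearly all of it CD68, and between 4.96 and 6.11 CPM for T and NK cell genes. It was under 1 CPM for the B cell, hepatocyte, muscle and red blood cell lists.

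A long stretch of genes at 0 lay on the short arm of chromosome 9. From HACD4 to IZUMO3 (chr9:20999515-24545946), 25 consecutive protein-coding genes had a value of 0 in all 4 libraries. They were 16 type I interferon genes and 9 others, among them CDKN2A and CDKN2B, which encode inhibitors of cyclin-dependent kinases, MTAP, an enzyme of methionine salvage that most cells express, KLHL9, DMRTA1 and ELAVL2. Taken library by library, a value of 0 allows an expected count of up to about 3, and 0 in all 4 libraries together allows less. A list of 9 genes was drawn up for this interval with earlier results of these data known. Of these, 7 were at 0, and FOCAD and MLLT3, outside the stretch, were not. Those 7 all lie within the stretch, so the count repeats the same observation. On the side toward the chromosome end, FOCAD ended 3.56 kb away and had values of 513, 489, 664 and 495. On the other side TUSC1 began 1130 kb away and had values of 1782, 2358, 2606 and 1805.

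Genes farther out on both sides were mixed. RPS6, a ribosomal protein gene, had 814 ± 55.5 CPM, PLAA 55.1 ± 1.11 CPM and MLLT3 15.7 ± 0.982 CPM, whereas ACER2 had 1.42 ± 0.233 CPM, SLC24A2 0.15 ± 0.0588 CPM, LRRC19 0.233 ± 0.105 CPM and TEK 0.0847 ± 0.0711 CPM, and EQTN was at 0 in all 4 libraries. Of the 43 other annotated genes within the stretch, 2 had a value above 0, and both are processed pseudogenes, CLIC4P1 and KHSRPP1. Outside chromosome Y and the mitochondrial genome, 1611 runs of protein-coding genes at 0 were found, and by number of genes this one was the fourth longest. That rank rests largely on a single gene family, since 16 of its 25 genes are interferon genes. The one with the most, 62 genes on chromosome 11, held 54 olfactory receptors, and olfactory receptors are silent in most tissues. Across chromosome 9, 14.2% of 772 protein-coding genes were at 0 in all 4 libraries. Whether these genes are missing from the genome or silent cannot be read from RNA, and DNA was not measured.

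**Figure D4:**
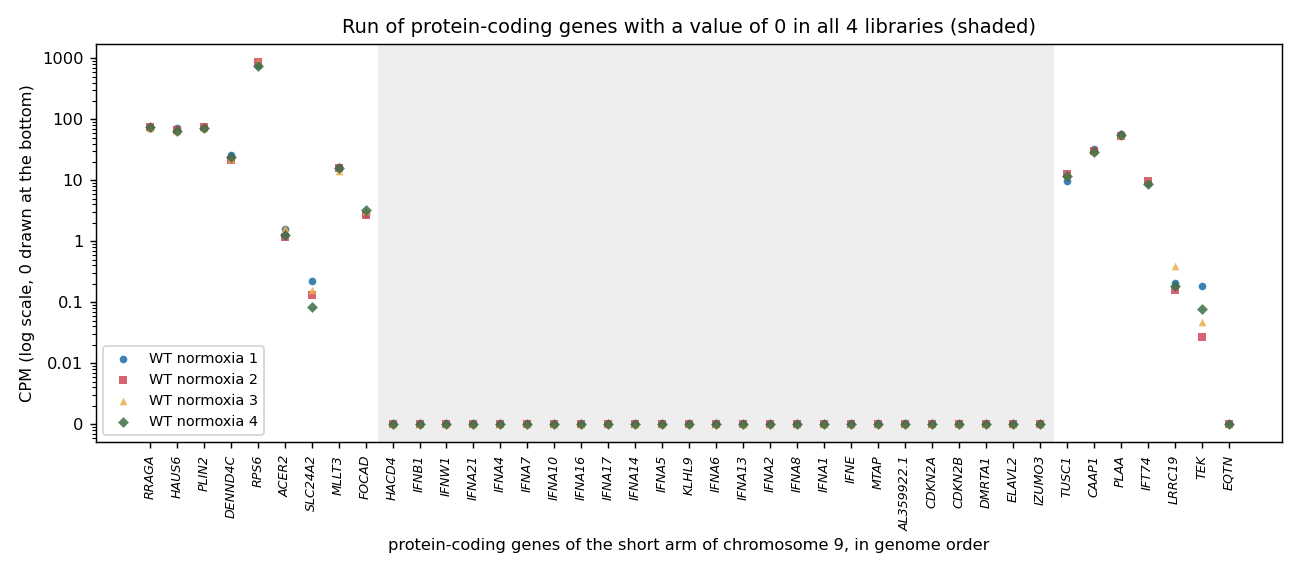
CPM (log axis, with 0 drawn at the bottom) of protein-coding genes of chromosome 9p in genome order, each point 1 of the 4 libraries. All points from HACD4 to IZUMO3 (shaded) lie at 0, between FOCAD at about 2.95 CPM and TUSC1.

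Cell-cycle genes were well expressed. All 18 proliferation genes reached 100 CPM in all 4 libraries. Of all 19890 protein-coding genes, 2135 reached 100 CPM and 9056 reached 10 CPM in all 4. CCNB1, cyclin B1, had 538, 540.1, 531 and 528 TPM, TOP2A, topoisomerase II alpha, had 482, 415, 418 and 422 TPM, and MKI67, which encodes Ki-67, had 136, 91.5, 106 and 105 TPM. MKI67 was highest in library 1, with a coefficient of variation (CV, the SD as a percentage of the mean CPM) of 15.9%, against 2.2% for CCNB1. All 12 sterol synthesis genes reached 10 CPM, and DHCR7, an enzyme of the last step of cholesterol synthesis, had 196 ± 10.6 TPM. The 11 heat shock genes also all did, and HSP90AB1, a chaperone expressed without stress, led with 2585, 2574, 2586 and 2466 TPM, while the stress-induced HSPA1A and HSPA1B, which are near-identical, had 22.6 ± 2.36 and 29.2 ± 3.0 TPM. Of 19 immediate-early genes, 17 reached 1 CPM, which is 89.5% against 59.71% of all protein-coding genes. FOSL1 was highest, and MYC had 276, 294, 274 and 308 TPM. FOS, FOSB and EGR1 had 4.1 ± 0.249, 0.89 ± 0.0762 and 17.8 ± 1.6 TPM.

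Genes close to the subject of the study were chosen once the other values had been seen. CCAR2, which encodes DBC1 and is the gene knocked out elsewhere in the study, had 75.7, 72.9, 73.2 and 79.3 TPM. SIAH2, a ubiquitin ligase, had 32.8, 35.1, 34.1 and 35 TPM. OTUD5, a deubiquitinase, had 39.7, 39.7, 39.7 and 40.2 TPM. SIRT1 and HDAC3, deacetylases that DBC1 is known to bind, had 22.2 ± 1.22 and 74.3 ± 1.4 TPM. Of 9 genes of oxygen sensing, 8 reached 1 CPM in all 4 libraries, against 59.71% of all protein-coding genes. HIF1A, the oxygen-labile subunit of HIF-1, had 188, 165, 163 and 172 TPM and its relative EPAS1, HIF-2 alpha, 12.9, 12, 10.9 and 13.6 TPM, while HIF3A was at 0 in 3 of the 4 libraries. ARNT, their partner, VHL, which marks them for degradation, and EGLN1, the main prolyl hydroxylase, had 19.2 ± 2.01, 68.1 ± 2.3 and 38 ± 1.46 TPM, and EGLN3 had 1.35 ± 0.182 TPM.

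Genes known to rise in hypoxia had baselines that differed by orders of magnitude. LDHA, lactate dehydrogenase A, had 438, 430.4, 414 and 421 TPM, SLC2A1, the glucose transporter GLUT1, had 187, 177, 177 and 192 TPM, and NDRG1 had 62.7, 69.6, 66.5 and 81.4 TPM, highest in library 4. BNIP3 and ADM had 74.2 ± 1.5 and 42.8 ± 1.19 TPM, and VEGFA had 15.2 ± 1.41 TPM. ANKRD37 and PDK1 had 5.0 ± 0.464 and 3.2 ± 0.19 TPM. CA9, carbonic anhydrase IX, was near 0 with 0.0384, 0.0927, 0.0655 and 0.0585 CPM and was the only 1 of the 10 genes under 1 CPM.

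The spread between libraries was small for most genes. Over 9607 genes with a mean of at least 10 CPM, the median CV was 5.30%, and the 5th and 95th percentiles were 1.95% and 12.1%. The median fell with level, from 28.7% at 0.1 to 1 CPM and 10.8% at 1 to 10 CPM to 4.38% at 1000 CPM or more. The biological coefficient of variation of edgeR, a summary over the same genes, was 8.17%. COG4, a subunit of a Golgi tethering complex, had the lowest CV, with 38.6, 38.5, 38.6 and 38.6 CPM. TGFBI, a secreted matrix protein on the mesenchymal-like list, was second lowest with 306, 307, 307 and 307 CPM. The other 8 of the 10 lowest were KIAA1191, TMEM41A, JRKL, KMT5B, TRPC4AP, RPE, PHF19 and DPF2, all with a CV under 0.5%.

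At the other end, 88 genes had a CV above 20%. AC011511.4 had 0, 0, 6.38 and 38 CPM, and AC138811.2 had 5.16, 1.53, 33.1 and 2.18 CPM. VIM-AS1, an antisense RNA at the VIM locus, had 4.72, 72.5, 36.8 and 4.39 CPM, while VIM itself had 5052, 5121, 4929 and 4978 CPM. SENP3-EIF4A1, a read-through of neighboring genes, had 46, 21.2, 23.6 and 135 CPM and a CV of 94.8%. EIF4A1, the RNA helicase of translation initiation whose exons it shares, had 1051, 1128, 1120.2 and 970 CPM. EIF4A1 alone, which makes up most of the sum, had a CV of 6.91%, and the sum of both had a CV of 2.39%. BCL2L2-PABPN1 and PABPN1 gave 82.5% and 9.45% singly and 5.64% as a sum. Of 84 annotated genes with a CV above 20%, 61.9% shared exon bases with another gene on the same strand, and of all 9596 annotated genes at this level 17.0% did. The remaining 5 of the 10 highest were AL589666.1, AC004922.1, PEDS1-UBE2V1, CLCN3P1 and HYPK.

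Library 1 was the farthest from the median of the 4 for 4311 of the 9607 genes, which is 44.9%, against 11.8% for library 3. Libraries 2 and 3 were the most alike, with a median absolute log2 ratio of 0.05, while the pairs with library 1 had between 0.09 and 0.11. Part of this followed transcript length. When genes were put into 8 groups by their longest transcript, the median log2 ratio of library 1 to the gene mean went from -0.10 in the shortest group to 0.11 in the longest, and rose at each of the 7 steps. Library 4 went from -0.03 to 0.03, library 2 fell from 0.06 to -0.09 and library 3 from 0.05 to -0.07. The long mRNAs of EGFR, FN1 and MKI67 were highest in library 1 or 4, and the short mRNA of TMSB10 was lowest in library 1. Whether RNA quality, library preparation or the cells differed was not tested.

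**Figure D5:**
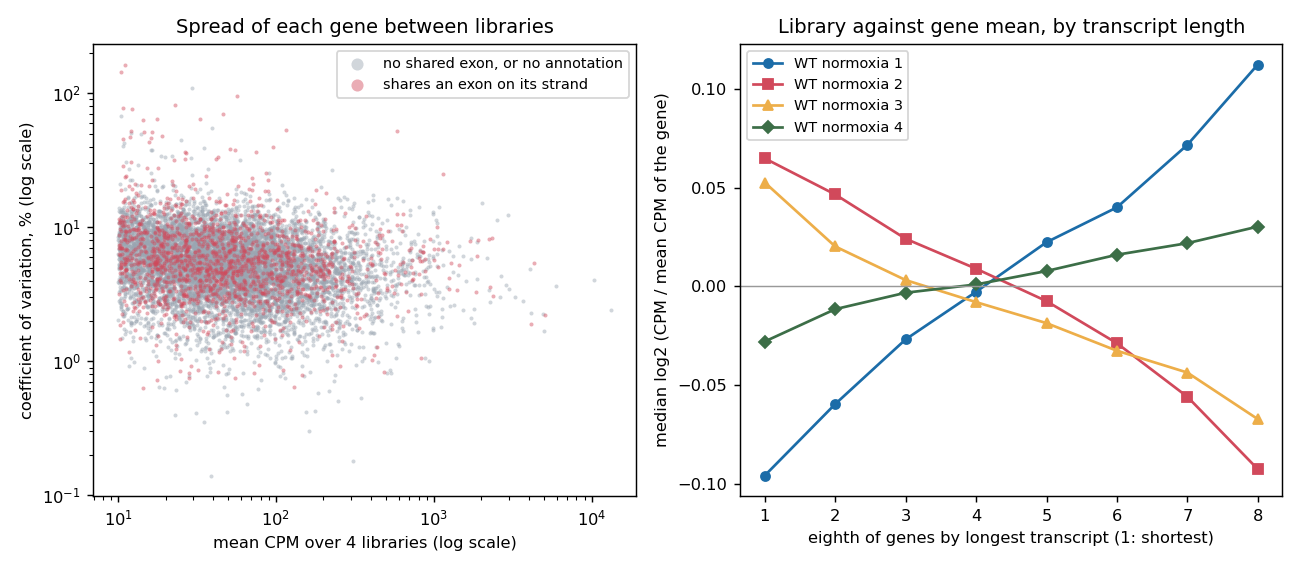
Left, CV against mean CPM (both log axes) of the 9607 genes with a mean of at least 10 CPM, with genes that share an exon on their strand in red. Right, the median log2 ratio of each library to the gene mean in 8 groups of genes by transcript length, which rises in libraries 1 and 4 and falls in libraries 2 and 3.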

How the data were processed

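Expression was measured by poly-A RNA-seq in 4 WT normoxia libraries, grouped by their labels, while the 8 other libraries were not used. The authors deposited whole-number estimated counts per gene and library. The methods name Hisat2 and StringTie, whereas the submitters' processing notes name HISAT2, SAMtools and featureCounts, and the labels name Trizol and TruSeq where the methods name miRNeasy and NEBNext. The build, and whether counting used strand, are not given in the sources used here. Values of 4 were more frequent than 3 or 5 in each library (1119 to 1236 genes at 4, 628 to 692 at 5), so sums are not read numbers.

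From these values CPM (per sum of all genes) and TPM (merged exon length) were computed with pandas 2.3.3, and dispersion with edgeR 4.0.16. Lengths and positions came from GENCODE on GRCh38, which gave a length for 58396 of 60664 genes. No groups were compared and no p-value was computed. Dixon's test for 1 distant library was applied to values given by library. The genes named were the markers, the 25 highest by TPM, the 10 highest by CPM, the highest members of each list and those beside 1 CPM, and the 10 with the lowest and highest CV, and single genes beyond that were named after their values were seen. The members and lists were chosen with earlier results of these data known. The computation of the spread was tested on simulated data. Alternatives were other scalings, filters, lengths and sets of libraries. A few genes of these lists are not reported here.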

Additional observations from a re-analysis of the deposited data

Results flagged for a closer look

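Of 130 genes, library totals and ratios given above with 4 values, 12 had 1 library far from the other 3, with a gap to the nearest that passed the critical share of the range of Dixon's test. Chance flags about 1 in 20 groups of 4 that were not picked by their values, and with values this close a small gap can be enough. AC011511.4 and AC138811.2 were named for a high CV over these same values, and other genes after their values were seen. The 12 flags therefore cannot be weighed against 1 in 20. Library 1 was the distant one in 4 cases: it was lowest for LGALS1 (2084 TPM, the next being 2355) and CD68 (86.2 CPM, the next being 94.0), and highest for TOP2A (482 TPM, the next being 422) and PGR (0.0988 CPM, the next being 0.0260). Library 4 was distant in 5 cases. It was highest for EPHA2 (415 TPM, the next being 372), for OTUD5 (40.2 TPM, the next being 39.7), and for AC011511.4 (38.0 CPM, the next being 6.38). It was lowest for HSP90AB1 (2466 TPM, the next being 2575) and for the ratio of MMP1 to MMP14 (4.33, the next being 5.41). Library 3 was distant in 3 cases and highest in each, with 33.1 CPM for AC138811.2, 2.57 CPM for CD8A and 0.0421 CPM for MMP2, which was at 0 in the other libraries. Library 2 was never the distant one.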

How the results depend on the processing

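Of 104 alternatives to 30 results, 85 moved the value by less than the spread between libraries, or a count by less than 1.5 times. These included all 24 for the gene families and all 35 for the CPM of the 7 markers. Most of those 35 left out 1 of the 4 libraries, which cannot shift a mean by as much as the SD. They were bound to count as unmoved and say nothing on robustness. The same holds for the share of the 10 highest genes as long as these stay the same 10. For the median CV, the spread used was the SD of the values with 1 library left out. Genes at 1 CPM in all 4 libraries numbered 13387, and 23873 with any value above 0. The 10 highest genes took 6.12% of the sum, 14.4% by TPM and 4.64% without mitochondrial genes. The median CV of 5.30% became 6.28% from 1 CPM up and 11.8% with no filter. It was 4.44% with the length trend removed, an alternative chosen after seeing the data, as was leaving out genes that share exons (5.26%). Leaving out 1 library gave between 4.08% (without library 1) and 5.62%. Ranks depended on length: with the longest transcript VIM was at 16, CD44 at 573, ERBB2 at 3676 and ESR1 at 23500, and by CPM VIM was at 5, CD44 at 192, EGFR at 448, ERBB2 at 2626, ESR1 at 16714, CDH1 at 22723 and PGR at 22847. Genes of other cell types numbered 29 at 0.1 CPM, in place of 11. No paired analysis was possible because only one group was used and no comparison was tested. A value of 0 does not exclude a level of up to about 0.0195 CPM, and values of a few counts are uncertain. The spread was 28.7% between 0.1 and 1 CPM.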

Other observations

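Several signaling ligands and matrix genes beyond those described above were present. TGFB2, a transforming growth factor, had 48.9 ± 3.64 TPM and FGF5, a fibroblast growth factor, 39.9 ± 3.6 TPM. Both share exon bases with another gene on their strand, so their values are uncertain to that extent. NRG1, the ligand of ERBB3 and ERBB4, had 23.7 ± 0.847 TPM, while its receptor ERBB3 was low and ERBB4 was at a trace level. COL6A1 and COL6A2, chains of collagen VI, had 31.1 ± 3.71 and 18.3 ± 2.15 TPM, whereas COL6A3, the chain that completes this collagen, had 0.239 ± 0.0561 TPM. ITGB2, the beta chain of white blood cell integrins, had 21.8 ± 1.28 TPM, while its partners ITGAL, ITGAM and ITGAX had 0.0352 ± 0.0337, 0.0269 ± 0.0538 and 0.00409 ± 0.00818 CPM and ITGAD was at 0. Among immediate-early genes, DUSP1, JUN and KLF4 had 283 ± 14.4, 233 ± 15.7 and 50.2 ± 1.48 TPM, while EGR2 and EGR3 had 0.254 ± 0.131 and 0.0649 ± 0.0563 CPM and were the members below 1 CPM.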
